A study of Mus musculus with 8 samples.

Results

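Cytosolic ribosomal protein genes encode the proteins that, with the ribosomal RNAs, make up the small and the large subunit of the cytoplasmic ribosome. They were taken here as every gene whose name begins with Rpl or Rps followed by a digit, plus the stalk genes Rplp0, Rplp1 and Rplp2 and the small subunit gene Rpsa, leaving out pseudogenes with "-ps" in the name and the Rps6k kinases. The rule found 92 of 52636 gene IDs, 54 of them with large subunit names and 38 with small subunit names. By the GENCODE M21 annotation 86 of the 92 are protein coding, 4 are processed pseudogenes (Rps3a3, Rpl6l, Rps3a2 and Rps12l1) and 2 are transcribed processed pseudogenes (Rpl37rt and Rps4l). Rps19bp1, which the name rule also takes in, encodes a protein that binds Rps19 and is not itself part of the ribosome.

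The libraries came from mouse co-cultures of splenocytes with colon cancer cells, both of the C57BL/6 strain by the labels. Colon cancer organoids that carried tdTomato, a red fluorescent reporter, had been injected into the spleen, and the cancer cells that colonised the liver were sorted by the protein levels of tdTomato and of CD4, a T cell surface protein. The sort gave trogocytic cancer cells, trogocytosis being the uptake of membrane pieces from another cell by contact, and non-trogocytic cancer cells as the control. Each kind was cultured for 5 days with 50 splenocytes per cancer cell, the splenocytes coming from Actin-GFP reporter mice, in which a green fluorescent protein is driven by an actin promoter. Polyadenylated RNA of the whole co-culture was sequenced in 4 trogocytic and 4 non-trogocytic libraries, so every value below is a mean over leukocytes and cancer cells together. The labels do not give the genotype of the organoids, the number of organoid lines, or the age of the mice. Whether the replicates came from separate animals or cultures is not stated either, so a p-value here reflects the spread among 4 libraries per group that may be technical.

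The cytoplasmic ribosome needs its proteins in equal numbers, one copy of nearly each per ribosome, and the genes that encode them are transcribed together in growing cells. Their mRNAs begin with a run of pyrimidines, the 5′ terminal oligopyrimidine (TOP) motif, through which the mTOR kinase and the RNA-binding protein Larp1 set how actively they are translated. T cells, B cells and tumour cells all raise ribosome production when they grow and divide, and these transcripts are usually among the most abundant of a cell.

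Both cell sources were visible in every library. The 15 leukocyte markers had a mean of log2(TPM + 1), where TPM is the abundance of a transcript relative to the library total, of 4.12 to 6.07 per library. The 15 epithelial markers had a mean of 5.56 to 7.14. Epcam, an epithelial adhesion protein, was between 249 and 496 TPM, and Ptprc, which encodes the leukocyte protein CD45, between 55.8 and 345 TPM. The sequence aligned to genes amounted to 1.39 to 1.84 gigabases per library, estimated from the deposited coverage and FPKM values. At that depth 1 TPM of a 500-base transcript rests on 1.46 to 2.11 read pairs, so members at a few TPM rest on a handful of reads.

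Ribosomal protein genes held between 10.6% and 12.8% of all TPM. The share was 10.6%, 10.6%, 12.3% and 12.7% in non-trogocytic replicates 1 to 4 and 10.9%, 12.8%, 12.6% and 12.2% in trogocytic replicates 1 to 4. The lowest values were those of non-trogocytic replicates 1 and 2 and trogocytic replicate 1, and the ranges of the groups overlapped. The mean was 11.5% ± 1.10 (SD, n = 4) in non-trogocytic and 12.1% ± 0.858 (SD, n = 4) in trogocytic co-cultures, a difference of 0.598 percentage points that was smaller than either SD. The large subunit genes made up 6.299% ± 0.628 and 6.67% ± 0.516 of TPM (SD, n = 4 each), and the small subunit genes 5.22% ± 0.487 and 5.45% ± 0.344. The ratio of the large to the small subunit share stayed between 1.16 and 1.25 in all 8 libraries. In a bulk mixture, fewer cells of a type and less RNA per cell cannot be told apart, and because TPM sum to a fixed total a higher share of these genes is also a lower share of all others.

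**Figure D1:**
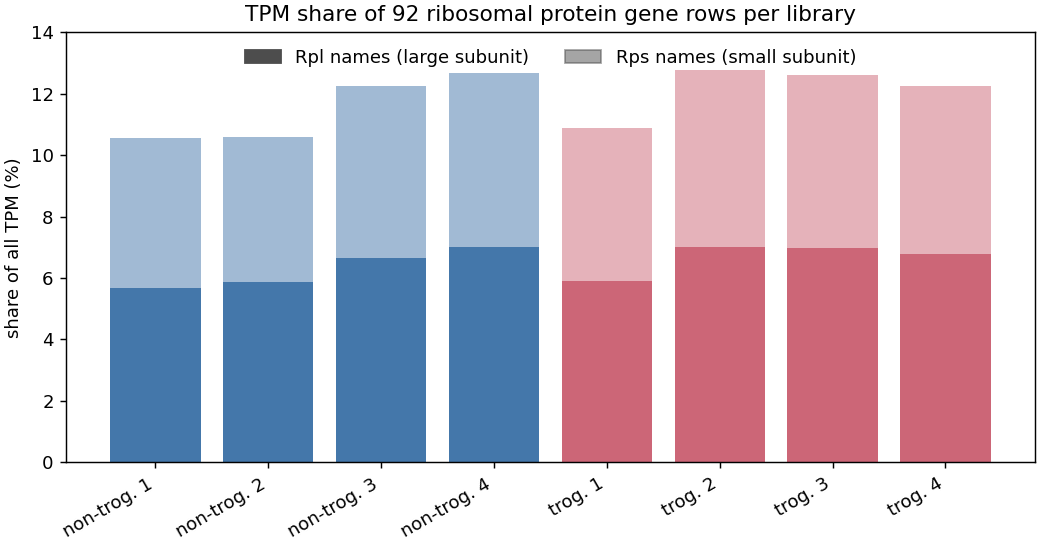
Share of all TPM (%, y axis, from 0) held by the 92 ribosomal protein gene rows in each of the 8 libraries, split into large subunit names (lower, dark) and small subunit names (upper, light), with non-trogocytic libraries in blue and trogocytic libraries in red. The bars run from 10.6% to 12.8%, and the blue and red bars overlap in height.

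Levels within the family differed widely. The median member had a mean of 1074 TPM, 50 of the 92 members reached a mean of 1000 TPM or more, and 8 were below 20 TPM. The 8 most abundant members held 29.5% of the family's TPM. Among them were Rps27 at 5153 ± 2269 and 5829 ± 1077 TPM in non-trogocytic and trogocytic co-cultures, and Rpl35, Rps14, Rpl23a, Rpl32 and Rps18. Rpl41, which encodes the shortest protein of the large subunit, was at 2853 ± 395 and 3019.9 ± 349 TPM (SD, n = 4 each). Rpsa was far below the median member, with a mean of 197 ± 64.9 TPM in non-trogocytic and 191 ± 36.5 TPM in trogocytic co-cultures (SD, n = 4 each). Whether reads shared between gene copies move these levels was not tested.

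Reads of 100 bases can match more than one copy of a ribosomal protein gene. Of the 92 members, 83 share at least one 100-base stretch of their GENCODE M21 transcripts with another gene, and 21 share more than 50% of their stretches. Of the 9 members that share none, those described here are Rps27l, Rps3, Rpl22, Rps19bp1, Rpl39l, Rpl3l and Rpl10l. The 276 "-ps" pseudogene rows together held 1.01% to 1.28% of the TPM of the members, with most for Rps19, whose 14 such rows summed to 19.0% of its own TPM. Copies with other kinds of names were not summed. Values of members with near-identical copies are uncertain for this reason. Rps25, Rpl22l1, Rpl5 and Rpl35 also overlap genes on the opposite strand that were at 19.2% (Trappc4), 14.4% (Gm33051), 7.33% (Fam69a) and 5.45% (Arpc5l) of their TPM, and the strand setting of the counting is not given in the sources used here.

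The members lie on 19 chromosomes, and 30 of the 86 coding members (34.9%) have at least one small nucleolar RNA gene inside their span, against 156 of 9469 other tested coding genes (1.65%). These intron-encoded RNAs guide the chemical modification of ribosomal RNA. Rpl4 holds 5 of them, and Rpl13a holds 4.

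The start regions of members whose values are described below are shown next, because Rps27 and its retrocopy Rps27rt share their transcript but not the sequence ahead of it. Each line gives 60 bases before and 20 bases from the RefSeq transcription start on GRCm38.p6, on the strand that reads as the transcript. Capitals mark CTTTCC, a run of pyrimidines, wherever it occurs in the line. The marked run need not begin the mRNA, and in the Rpl35 line most of it lies before the RefSeq start.
Rps27 (chr3:90213629-90213708, minus strand): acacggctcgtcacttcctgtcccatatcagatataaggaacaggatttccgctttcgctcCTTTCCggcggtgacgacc
Rps27rt (chr9:114982720-114982799, minus strand): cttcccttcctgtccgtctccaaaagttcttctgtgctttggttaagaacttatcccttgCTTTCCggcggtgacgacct
Rplp0 (chr5:115559407-115559486, plus strand): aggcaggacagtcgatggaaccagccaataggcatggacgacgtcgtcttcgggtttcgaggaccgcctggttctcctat
Rps2 (chr17:24720003-24720082, plus strand): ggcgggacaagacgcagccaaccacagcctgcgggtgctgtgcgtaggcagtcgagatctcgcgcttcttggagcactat
Rpl35 (chr2:39005112-39005191, minus strand): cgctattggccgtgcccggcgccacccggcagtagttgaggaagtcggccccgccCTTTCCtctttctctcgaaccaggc
Rps27 and Rps27rt carry the same letters from CTTTCC onward and different letters before it.

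Start regions of 300 bases (250 before the start to 50 after it) were found in the RefSeq table for 67 members, 66 of them coding. CTTTCC on the strand that reads as the transcript was present in 27 of the 66 (40.9%). It was present in 17.3% of 7461 other tested coding genes and 16.0% of all 27025 entries. CCGGAAG, a form of the binding motif of ETS family factors, was present on either strand in 26 of the 66 (39.4%), against 22.2% of the other tested coding genes and 9.93% of all entries. TATAAA on the strand that reads as the transcript was present in 6 (9.09%), against 5.72% of the other tested coding genes and 9.77% of all entries. These are matches of letters anywhere in the 300 bases and do not show that a factor was bound. A match of CTTTCC also does not show that the mRNA begins with a TOP motif. Where CTTTCC and CCGGAAG lie next to each other they can share 1 or 2 letters.

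The first comparison was of ribosomal protein genes in co-cultures of trogocytic against those of non-trogocytic cancer cells. Of the 92 members, 88 passed the filter of at least 1 TPM in 4 or more libraries, 51 with large subunit and 37 with small subunit names. Rpl39l, Rps12l1, Rpl3l and Rpl10l did not. None of the 88 was called by limma at a Benjamini-Hochberg adjusted p below 0.05, where 0.0525% of the 11433 genes tested were called. None reached an unadjusted p below 0.05 in either direction, where 2.07% of all tested genes did so with a higher and 2.52% with a lower level in trogocytic co-cultures. The smallest adjusted p among the members was 1.00 when rounded.

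Fold changes, given as the log2 of (TPM + 1) in trogocytic over non-trogocytic co-cultures, had a median of 0.05 over the 88 members and 0.01 over all genes tested. They were above 0 for 39 of the 51 large subunit members and 23 of the 37 small subunit members. The lean above 0 depended on the setting. On FPKM values the median was -0.01 with 38 of 87 members above 0, with non-trogocytic replicate 1 left out it was -0.01 with 41 above 0, and after rescaling every library to the same ribosomal protein sum it was -0.03 with 34 above 0. The fold changes of 80 of the 88 members lay within 0.25 of 0 on either side. The median standard error was 0.16 for the members and 0.47 for all genes, so the typical member had a smaller error than the typical gene. With no mean-variance trend the medians were 0.25 and 0.44. The part of the high levels of the members in this difference was not tested. For 84 of the 88 (95.5%) the 95% interval lay wholly between -1 and 1, which bounds the difference to less than a doubling either way, against 26.0% of all genes tested.

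**Figure D2:**
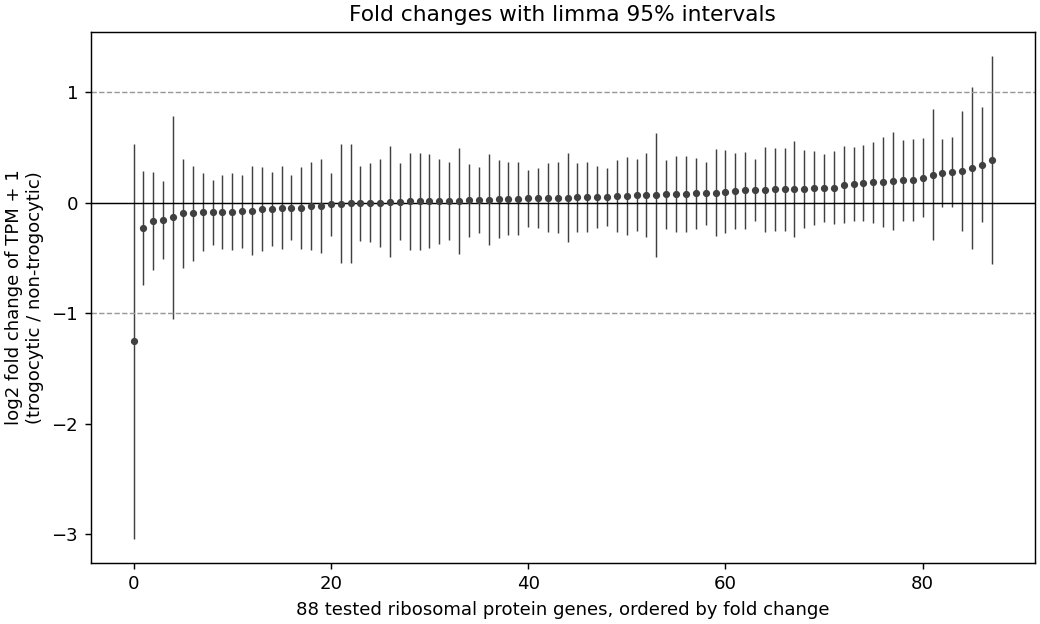
Log2 fold changes of TPM + 1 (y axis, trogocytic over non-trogocytic) of the 88 tested ribosomal protein genes, ordered along the x axis by fold change, with limma 95% intervals as vertical lines, a solid line at 0 and dashed lines at -1 and 1. Every interval includes 0, and 84 of the 88 lie between the dashed lines.

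Among large subunit genes the smallest p-values belonged to Rpl35 and Rpl4. Rpl35 encodes a protein at the exit of the tunnel through which the new protein chain leaves. It was at 5073, 3471, 4633 and 4462 TPM in non-trogocytic replicates 1 to 4 and at 5552, 4879, 5204 and 5446 TPM in trogocytic replicates 1 to 4. The groups overlapped only through non-trogocytic replicate 1. The log2 fold change was 0.27 ± 0.14 (SE), with a 95% interval from -0.04 to 0.57 and an adjusted p of 1.00 by limma.

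Rpl4 encodes a protein that lines the same tunnel. Its levels were 1477, 2035, 1899 and 1979 TPM in the non-trogocytic and 1931, 2372, 2317 and 2300.5 TPM in the trogocytic libraries, in replicate order. Trogocytic replicate 1 fell within the non-trogocytic range and the other 3 lay above it. The log2 fold change was 0.28 ± 0.14 (SE), interval -0.04 to 0.60. Rpl18, another large subunit protein, was at 353 ± 95.6 against 446 ± 96.3 TPM (SD, n = 4 each), and its log2 fold change of 0.34 ± 0.24 (SE) had an interval from -0.18 to 0.87. On the other side of 0, Rpl10, one of the last proteins to join the large subunit, had a log2 fold change of -0.15 ± 0.16 (SE) and Rpl27a one of -0.17 ± 0.20. With single libraries left out, the values ran from 0.16 to 0.34 for Rpl35, 0.17 to 0.35 for Rpl4, 0.23 to 0.52 for Rpl18, -0.25 to -0.07 for Rpl10 and -0.30 to -0.06 for Rpl27a. None of these differences exceeded the spread between libraries by the test.

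Rpl5 and Rpl11, which bind the 5S ribosomal RNA and, when free, the p53 regulator Mdm2, were close to level. Rpl5 was at 995 ± 129 TPM in non-trogocytic and 1089 ± 84.7 TPM in trogocytic co-cultures, and Rpl11 at 842 ± 74.6 and 819 ± 157 TPM (SD, n = 4 each). Their intervals on the log2 scale ran from -0.18 to 0.44 and from -0.43 to 0.32. Rpl13a, a large subunit protein also known from translational control in macrophages, was at 1534 ± 195 and 1566 ± 352 TPM, and Rpl26, known to bind p53 mRNA, at 2120.3 ± 385 and 2435 ± 339.5 TPM. Rpl26 had a log2 fold change of 0.21 ± 0.17 (SE).

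The ribosomal stalk is formed by Rplp0 at its base and by dimers of Rplp1 and Rplp2, which recruit the translation factors that use GTP. Rplp1 was at 2029 ± 238 TPM in non-trogocytic and 2187 ± 58.1 TPM in trogocytic co-cultures. Rplp2 was at 471 ± 92.1 and 528 ± 17.0 TPM. Rplp0 was at 2756 ± 712 and 2530.5 ± 352 TPM (SD, n = 4 each). The trogocytic libraries were closer to one another than the non-trogocytic ones for all 3 genes, and the intervals of the log2 fold change were -0.16 to 0.39, -0.18 to 0.55 and -0.53 to 0.33.

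Among small subunit genes Rps6, the substrate of the S6 kinases downstream of mTOR, had the smallest p on the higher side. Its levels were 2076, 1987, 2554 and 2622 TPM in the non-trogocytic and 2126, 2936, 3140.2 and 2646 TPM in the trogocytic libraries, in replicate order. The log2 fold change was 0.23 ± 0.16 (SE), interval -0.13 to 0.58, with a range from 0.15 to 0.34 when single libraries were left out. Replicates 1 and 2 of the non-trogocytic group and replicate 1 of the trogocytic group were the low ones here, as they were for the share of the whole family.

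Rps2, which sits where the mRNA enters the small subunit, had one of the smallest p-values on the lower side. It was at 773, 1613, 1122 and 1589.7 TPM in the non-trogocytic and 1017, 1229.9, 879.9 and 1062 TPM in the trogocytic libraries. The trogocytic values all fell inside the non-trogocytic range. The log2 fold change was -0.23 ± 0.23 (SE), interval -0.75 to 0.28, and it ran from -0.45 without non-trogocytic replicate 1 to -0.10 without non-trogocytic replicate 2. Rps14, which lies near the platform of the small subunit, was at 4346 ± 554 against 4452 ± 74.4 TPM (SD, n = 4 each). Rps27a, which is made as a fusion to ubiquitin, was at 1567 ± 255 and 1477 ± 120.3 TPM.

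The 4 members whose intervals reached beyond -1 or 1 were Rps4l, Rps3a3, Rps3a2 and Rpl6l, copies at low levels. Rps3a3, a processed pseudogene whose transcript is 98.9% identical to that of Rps3a1, was the only tested member without overlap between the groups. It was at 10.7, 11.7, 11.998 and 10.2 TPM in the non-trogocytic and 13.7, 13.4, 17.6 and 12.2 TPM in the trogocytic libraries, with 1.37% of all tested genes without overlap in this direction and 1.3% in the other. Its log2 fold change was 0.32 ± 0.33 (SE) and its adjusted p by limma was 1.00. Its level was 0.802% to 1.25% of that of Rps3a1, the functional gene, and Rps3a1 itself was at 1194 ± 124 and 1247 ± 166 TPM (SD, n = 4 each). Rps3a2, a second copy, stayed between 0.462 and 3.11 TPM.

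Rps4l, a retrocopy related to Rps4x, had the largest fold change of the family in size. It was at 6.56, 2.40, 4.87 and 5.15 TPM in the non-trogocytic libraries, and at 14.2, 0, 0.415 and 0.334 TPM in the trogocytic ones. The highest value of all 8 was thus trogocytic replicate 1, while the other 3 trogocytic libraries were the 3 lowest. The log2 fold change of -1.25 ± 0.81 (SE) had an interval from -3.04 to 0.53, and it ran from -2.16 without trogocytic replicate 1 to -0.85 without trogocytic replicate 2. Rpl39l, the testis-type paralogue of Rpl39, was also highest in trogocytic replicate 1, at 11.8 TPM, with 3.02 and 2.04 TPM in non-trogocytic replicates 1 and 2 and a listed value of 0 in the other 5. Rpl3l, a muscle paralogue of Rpl3, reached at most 1.09 TPM, and Rpl10l, a testis paralogue of Rpl10, was listed at 0 in all 8 libraries.

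Several paralogues were well expressed beside their canonical genes. Rpl22l1 was more abundant than Rpl22, the gene it can replace in the ribosome, at 1.82 to 2.84 times its TPM across the 8 libraries. Its levels were 688 ± 102 and 771 ± 69.5 TPM in non-trogocytic and trogocytic co-cultures, against 343 ± 75.3 and 343 ± 53.1 TPM for Rpl22 (SD, n = 4 each). Rpl36al was at 0.837 to 1.18 times the TPM of Rpl36a. Rpl7l1, a relative of Rpl7, was at 6.28% to 15.7% of Rpl7, with 139 ± 42.6 and 135 ± 5.84 TPM. Rps19bp1 was at 200.2 ± 51.9 and 185 ± 31.8 TPM beside 1713 ± 189.9 and 1609.9 ± 135 TPM of Rps19. None of these members was called in the trogocytic comparison, and TPM account for length, so these ratios compare levels per transcript.

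**Figure D3:**
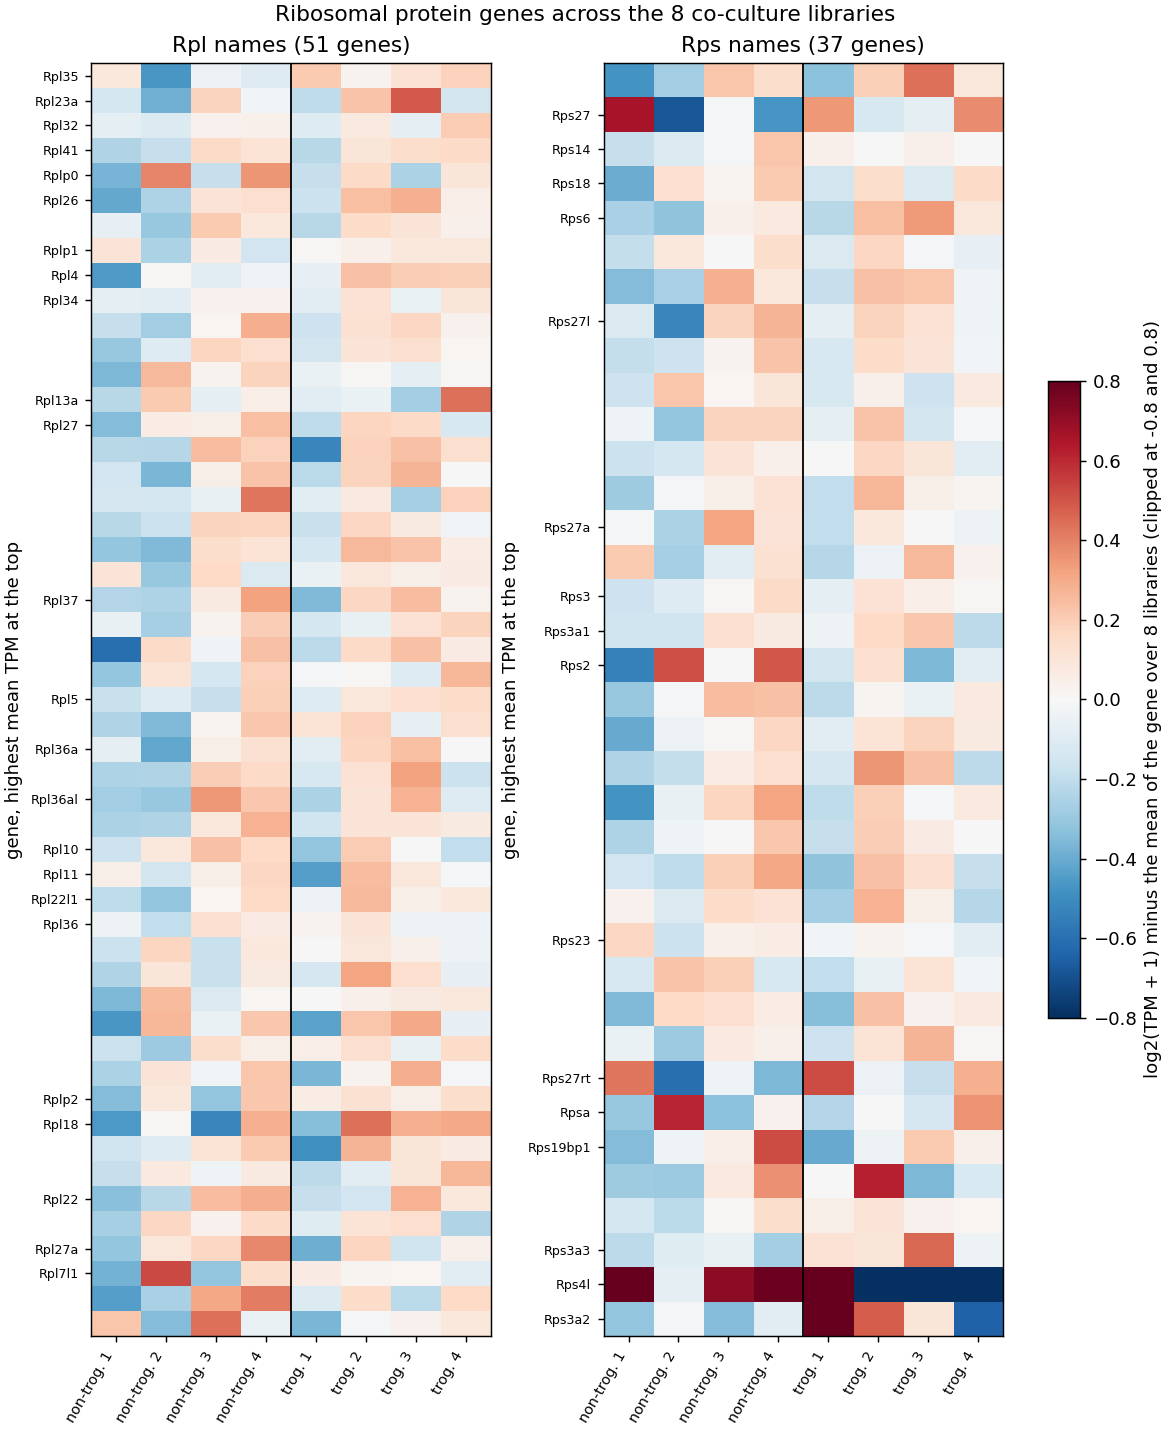
Level of each of the 88 tested ribosomal protein genes in each library as log2(TPM + 1) minus the mean of that gene over the 8 libraries (colour, blue below and red above the mean, clipped at -0.8 and 0.8), with genes in rows from the highest mean TPM at the top, some of those described in the text named, and libraries in columns, a black line parting the groups. The columns of non-trogocytic replicates 1 and 2 and trogocytic replicate 1 are mostly blue. Members that break this pattern include Rps27, Rps27rt and Rpl35 in both replicate 1 columns. In the column of non-trogocytic replicate 2 they include Rplp0, Rps2, Rpsa and Rps18.

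Many members had their lowest or highest level in the same libraries. Non-trogocytic replicate 1 held the lowest level of the 8 libraries for 36 of the 88 members, non-trogocytic replicate 2 for 26 and trogocytic replicate 1 for 14, leaving 12 for the other 5 libraries. The highest level lay in non-trogocytic replicate 4 for 23 members and in trogocytic replicate 2 for 16. These counts are on TPM without rescaling and can change with the scaling. The factors of the median-of-ratios rescaling were lowest for non-trogocytic replicate 1 (0.928) and highest for non-trogocytic replicate 2 (1.17). The counts were not repeated after that rescaling, and they were not made over all genes. The mean of log2(TPM + 1) over the members ran from 9.45 in non-trogocytic replicate 1 to 9.78 in non-trogocytic replicate 4. The genes outside the family whose levels were most like this mean over the 8 libraries were Hmgb2 (Pearson r 0.984), H2afz (0.983) and Mrpl13 (0.964), which encode a chromatin protein, a histone variant and a protein of the mitochondrial ribosome. They were picked as the highest values among all genes, and all of these points share the library totals.

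The SD of log2(TPM + 1) over the 8 libraries had a median of 0.21 for the members and 0.31 for 1556 other genes at 100 TPM or more, and 79 of the 88 members lay below the latter value. The other genes were not matched to the members in level. After the mean of the members was subtracted in each library the median SD of the members was 0.15. Taking away their own mean by itself tends to lower this SD, and the same was not done for the other genes. For 83 of the 87 members above 0 in every library, the highest value was at most 2 times the lowest. The steadiest were Rpl34, Rps23, Rpl36 and Rps3. Rpl34 stayed between 1874 and 2149.8 TPM, Rps23, which lies at the decoding centre, between 619 and 781 TPM, Rpl36 between 614 and 768 TPM and Rps3, at the mRNA entry, between 1188 and 1481 TPM. The most variable abundant member was Rps27, with values from 3276 to 8329 TPM.

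The second set of comparisons asked how the members followed the mix of cell types, as the slope of log2(TPM + 1) on the mean marker level of each library, fitted by limma on all genes. The leukocyte level was 6.07, 5.34, 5.06 and 4.12 in non-trogocytic replicates 1 to 4 and 5.81, 4.85, 4.39 and 5.94 in trogocytic replicates 1 to 4. The epithelial level was 5.56, 7.14, 5.98 and 6.74 and then 6.204, 6.26, 5.93 and 6.35. Neither level separated the groups. The markers of single leukocyte types did differ in sign between the groups without any being called, since all 9 tested macrophage markers had log2 fold changes below 0 (median -0.79) and all 10 T cell markers had fold changes above 0 (median 0.98). The summed level of all 10 listed macrophage markers ran from 3864 to 16996 TPM in non-trogocytic and from 2102 to 6299 TPM in trogocytic libraries. For T cell markers it ran from 324 to 1097 TPM and from 595 to 1713 TPM. Fold changes were above 0 for 5 of the 6 tested B cell markers (median 0.41) and for all 4 tested erythroid markers (median 0.83). All 10 listed B cell markers summed to between 60.2 and 515 TPM, and the 7 erythroid markers found to between 10.6 and 159 TPM. The 4 tested erythroid markers also had slopes above 0 on the leukocyte level (median 1.57), and Slc4a1 was listed at 0 throughout. Fibroblast markers summed to at most 39.4 TPM, with Pdgfrb listed at 0 in all 8 libraries. The part of these cell types in the values of the members was not tested.

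On the leukocyte level, none of the 88 members was called by limma, where 0.0700% of all tested genes were. At an unadjusted p below 0.05, 22 members had a slope below 0, where 5.49% of all tested genes did, and 2 had a slope above 0, where 7.85% did. The slope was below 0 for 79 of the 88 members with a median of -0.15 per unit of marker level, beside a median of -0.02 over all genes tested. The direction of the median held under every alternative, but the number of members at an unadjusted p below 0.05 with a slope below 0 did not. It was 4 (against 4.87% of all tested genes) after median-of-ratios rescaling and 2 (2.32%) after rescaling to the same ribosomal protein sum. It was 15 (5.90%) on FPKM values. It was 0 with no mean-variance trend (3.85%), with the replicate block (2.13%) and without replicate 1 of both groups (2.70%). Leaving out replicate 1, 2, 3 or 4 of the non-trogocytic group gave 8 (3.82%), 30 (6.68%), 15 (4.77%) and 13 (4.63%). Leaving out replicate 1, 2, 3 or 4 of the trogocytic group gave 11 (4.53%), 13 (4.33%), 12 (4.28%) and 30 (5.88%). Both replicate 1 libraries had high leukocyte levels and low ribosomal protein shares. Trogocytic replicate 4 had a high leukocyte level (5.94) with a share of 12.2%. Non-trogocytic replicate 2 had a share of 10.6% at a leukocyte level of 5.34. Mitochondrially encoded transcripts also had slopes above 0 on the leukocyte level for 11 of 12 tested genes, and their share of TPM ran from 0.317% in non-trogocytic replicate 4 to 1.14% in trogocytic replicate 1. Their part in these slopes was not tested.

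The smallest p-values among slopes below 0 included those of Rpl27 and Rpl37. Rpl27 was at 1200.1, 1592, 1576 and 1800.4 TPM in the non-trogocytic and 1324, 1721, 1699 and 1396 TPM in the trogocytic libraries, so that the 3 libraries with the highest leukocyte levels were its 3 lowest. Its slope was -0.26 ± 0.08 (SE) with an adjusted p of 0.164 by limma. Rpl37, another large subunit protein, had a slope of -0.28 ± 0.09 (SE) and an adjusted p of 0.205.

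Rps27 and Rps27rt went the other way. Rps27 encodes a zinc-binding protein on the outside of the small subunit. It was at 8329, 3276, 5208 and 3799.5 TPM in non-trogocytic replicates 1 to 4 and at 6685, 4813, 4985 and 6831 TPM in trogocytic replicates 1 to 4. The 3 highest values were those of the 3 libraries with the highest leukocyte levels. Its slope on the leukocyte level was 0.43 ± 0.15 (SE), adjusted p = 0.224 by limma. Leaving out non-trogocytic replicate 2 made it the only called member, where 0.796% of all tested genes were called. The Rps27 slope was then 0.47 ± 0.07 (SE) with an adjusted p of 0.0253 by limma. Over all alternatives its adjusted p ran from 0.0253 to 0.807. Between the groups Rps27 differed by a log2 fold change of 0.26 ± 0.27 (SE), interval -0.33 to 0.84.

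Rps27rt, the retrocopy on chromosome 9 whose start region is shown above, was at 584, 285, 423 and 337 TPM in the non-trogocytic and 623, 419, 382 and 528 TPM in the trogocytic libraries. It stayed at 7.01% to 9.32% of Rps27. Its transcript is 98.8% identical to that of Rps27 with an identical run of 337 bases, longer than a read, so the reads of this pair could not be told apart along that run. Its slope on the leukocyte level was 0.38 ± 0.14 (SE), adjusted p = 0.286. Rps27l, the paralogue known as a p53 target, shares no 100-base stretch with any other gene and did not follow Rps27. It was at 1653, 1252, 2034 and 2169 TPM and then 1704, 2028, 1946 and 1751 TPM, which is 19.8% of Rps27 in non-trogocytic replicate 1 and 57.1% in non-trogocytic replicate 4. Its slope on the leukocyte level was -0.20 ± 0.11 (SE), adjusted p = 0.486.

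On the epithelial level, again none of the 88 members was called by limma, where 0.0962% of all tested genes were. At an unadjusted p below 0.05, 7 members had a slope above 0, where 10.3% of all tested genes did, and 3 had a slope below 0, where 3.19% did. Slopes were above 0 for 49 of the 88 members, and the median was 0.02, beside 0.15 over all genes tested. Both medians depended on the scaling, since median-of-ratios rescaling gave -0.01 for all genes and -0.19 for the members. The members' median became -0.09 when non-trogocytic replicate 1, the library with the lowest epithelial level, was left out. It became 0.23 when non-trogocytic replicate 2, the library with the highest, was left out. In those cases 4 and 10 members had an unadjusted p below 0.05 with a slope above 0, against 7.85% and 5.52% of all tested genes. With a slope below 0 there were 5 and 1 members, against 2.40% and 2.67%. The count below 0 was also 1 without non-trogocytic replicate 4, against 2.34%. After median-of-ratios rescaling the balance turned to 2 above and 10 below 0, against 6.99% and 6.18% of all tested genes. Without replicate 1 of both groups it was 4 above and 14 below 0, against 8.48% and 2.98%.

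Rps2 had the smallest p of any member in any comparison, with a slope of 0.71 ± 0.14 (SE) and an adjusted p of 0.0797 by limma. Its values, given above, were lowest in non-trogocytic replicate 1 and highest in non-trogocytic replicates 2 and 4. Rplp0 had the same lowest and the same 2 highest libraries. It was at 2007, 3411, 2288 and 3316 TPM in the non-trogocytic and 2282, 2883, 2177 and 2779 TPM in the trogocytic libraries, with a slope of 0.55 ± 0.12 (SE) and an adjusted p of 0.0933. The adjusted p over the alternatives ran from 0.0501 to 0.819 for Rps2 and from 0.0501 to 0.835 for Rplp0, and the slopes stayed above 0 throughout.

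Rpsa, also known as the laminin receptor precursor, was at 153, 289, 150.2 and 194 TPM and then 161, 189, 172 and 243 TPM, with a slope of 0.56 ± 0.19 (SE), adjusted p = 0.230. Rpl7l1 had a slope of 0.52 ± 0.17 (SE), adjusted p = 0.238. Rps27 lay at the other end, with a slope of -0.74 ± 0.19 (SE) and an adjusted p of 0.137, followed by Rps27rt with -0.56 ± 0.22 and 0.288, and by Rpl35 with -0.32 ± 0.14 and 0.345. Without non-trogocytic replicate 2 the Rpl35 slope was -0.09. Rps27l had a slope of -0.20 ± 0.18 (SE), adjusted p = 0.698.

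The ratio of Rps27 to Rps2, a quantity that no scaling of the library changes, was formed after their values were seen. It was 10.8, 2.03, 4.64 and 2.39 in non-trogocytic replicates 1 to 4 and 6.57, 3.91, 5.67 and 6.43 in trogocytic replicates 1 to 4. Non-trogocytic replicate 1 had the highest ratio, the highest leukocyte level and the lowest epithelial level, and non-trogocytic replicate 2 had the lowest ratio and the highest epithelial level. The trogocytic values all lay inside the non-trogocytic range. The ratio of Rps27 to Rplp0 ran from 0.960 to 4.15 with the same 2 libraries at its ends.

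**Figure D4:**
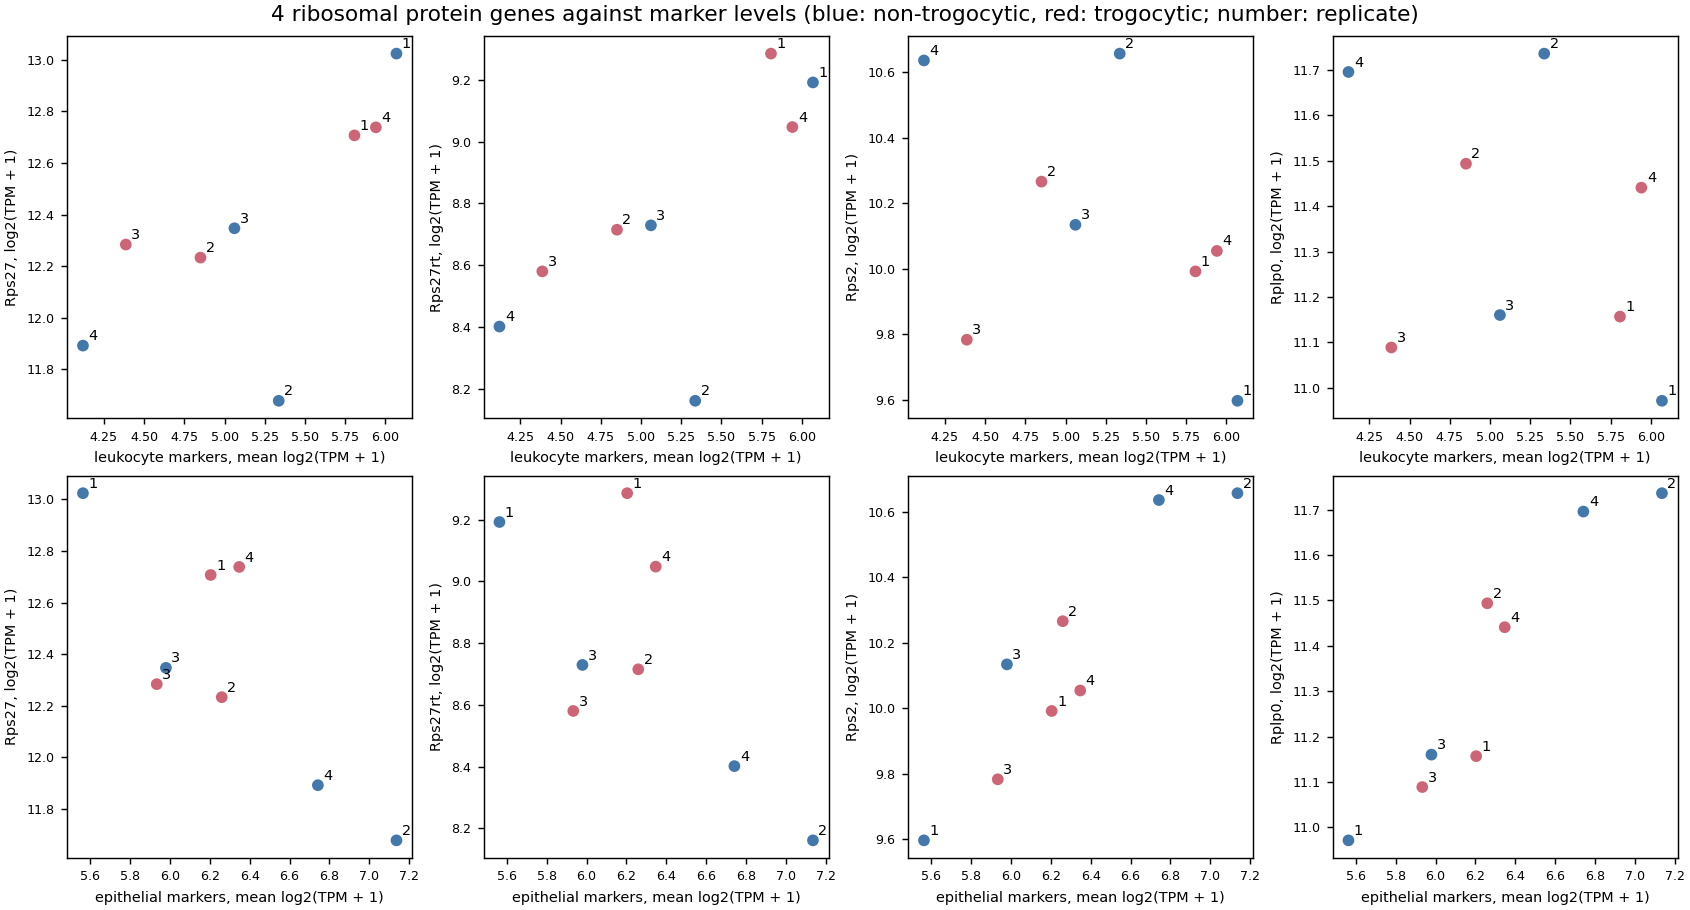
Log2(TPM + 1) of Rps27, Rps27rt, Rps2 and Rplp0 (y axes, columns from left to right) against the mean log2(TPM + 1) of 15 leukocyte markers (x axis, upper row) and 15 epithelial markers (x axis, lower row); each point is a library, blue for non-trogocytic and red for trogocytic, numbered by replicate. In the lower row Rps27 and Rps27rt run downward and Rps2 and Rplp0 upward, between non-trogocytic replicate 1 at the left and non-trogocytic replicate 2 at the right, and no member was called.

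Fau and Rack1 are ribosomal components outside the name rule, and neither was called in any of the 3 comparisons. Fau, which encodes a ubiquitin-like protein fused to a small subunit protein, was at 2378 ± 198 TPM in non-trogocytic and 2691 ± 320.3 TPM in trogocytic co-cultures. Rack1, a scaffold protein on the small subunit, was at 766 ± 110.5 and 769 ± 52.6 TPM (SD, n = 4 each). Their slopes on the leukocyte level were -0.14 ± 0.08 and -0.10 ± 0.09 (SE), with adjusted p-values of 0.510 and 0.712 by limma.

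Of 10 tested elongation factors and other TOP genes none was called in the trogocytic comparison, 7 had fold changes above 0, and the median was 0.03. Eef1a1, the factor that brings aminoacyl-tRNA to the ribosome, stayed between 1743 and 2089 TPM. Eif5a, which helps the ribosome through difficult stretches of sequence, was called on the epithelial level, with a slope of 1.75 ± 0.22 (SE) and an adjusted p of 0.0215 by limma. Its levels were 428, 2938, 502 and 1142 TPM in the non-trogocytic and 826, 809, 546 and 1382 TPM in the trogocytic libraries, lowest in the same library as Rps2 and Rplp0 and highest in the library where Rps2 and Rplp0 were highest. The call was lost with an adjusted p of 0.242, 0.583 and 0.0557 when non-trogocytic replicate 1, 2 or 3 was left out and of 0.0557 when trogocytic replicate 2 was. Changes of the processing lost it too, with adjusted p by limma in brackets. They were the pseudocount of 0.1 (0.0581), no filter (0.136), median-of-ratios rescaling (0.0895) and no mean-variance trend (0.178). So did the replicate block (0.814) and leaving out replicate 1 of both groups (0.221). Over all alternatives the adjusted p ran from 0.0162 to 0.814, with the slope above 0 in each.

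Other steps of ribosome production and use gave no calls between the groups. Among 32 initiation factors 12 had fold changes above 0 (median -0.05), among 38 ribosome biogenesis genes 25 (median 0.11), among 10 tested small nucleolar RNA host genes 9 (median 0.14) and among 78 mitochondrial ribosomal protein genes 39 (median 0.00). Of the 112 tested "-ps" pseudogene rows 76 had fold changes above 0 (median 0.11). On the leukocyte level the slope was below 0 for 33 of the 38 biogenesis genes (median -0.19) and for 69 of the 78 mitochondrial ribosomal protein genes (median -0.21), beside 79 of the 88 cytosolic ones (median -0.15). Npm1, a nucleolar chaperone of ribosome assembly, had a slope of -0.39 ± 0.10 (SE), adjusted p = 0.118, with levels from 1358 TPM in non-trogocytic replicate 1 to 2549.8 TPM in trogocytic replicate 3. On the epithelial level the slope was above 0 for 25 of the 32 initiation factors (median 0.28), 30 of the 38 biogenesis genes (median 0.25) and 60 of the 78 mitochondrial ribosomal protein genes (median 0.26). It was above 0 for 5 of the 10 small nucleolar RNA host genes (median 0.00) and 67 of the 112 pseudogene rows (median 0.05), beside 49 of the 88 cytosolic members (median 0.02) and 59.8% of all genes tested (median 0.15).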

How the data were processed

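Per the submitters' processing notes, the tools named are HISAT2, StringTie 1.3.3 and DESeq version 2, with GRCm38 (mm10). Which annotation release, strand setting and handling of multiply mapped reads were used is not given in the sources used here. The deposited files give TPM, FPKM and coverage (a signal per base) for each gene, per the file headers. TPM were summed per gene ID, and FPKM and coverage served only for depth and one alternative. Genes at 1 TPM or more in at least 4 libraries were tested in limma 3.58.1 (R 4.3.3) on log2(TPM + 1), which understates the change of low genes, with a mean-variance trend, two-sided and with Benjamini-Hochberg adjustment over all 11433 genes; calls are at 0.05. The fit was tested on simulated data. The slopes used the mean marker level of each library as the only term. No count model was used, because the values are not counts. Members, gene lists and tests were chosen with earlier results of these data known. Named members were those with the smallest p-values per direction, 4 in the trogocytic comparison and fewer for each marker slope. Also named were the 8 most abundant, the stalk genes, paralogues, and the steadiest and most variable. A few others were named for their role. A few members and related genes that these rules pick are not reported here. Alternatives were the pseudocount (0.1), filters (none; mean of 5 TPM), FPKM, rescalings, no trend, pseudogene rows added to their parents, a replicate block, covariates and leaving out libraries. Start regions came from RefSeq (GRCm38.p6); gene types, snoRNA genes and transcript identities from GENCODE M21, the identities by edlib 1.3.9.post1.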

Additional observations from a re-analysis of the deposited data

Results flagged for a closer look

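In 5 of 86 groups of 4 libraries examined, one library stood apart from the other 3 by Dixon's criterion, where chance gives about 1 in 20. All 5 were in trogocytic co-cultures, and 4 of them concerned replicate 1. Rpl4, of the large subunit exit tunnel, was at 1931 TPM in replicate 1 and at 2300.5 to 2372 TPM in the others. Rpl41 was at 2503 TPM in replicate 1 and at 3124 to 3244 TPM in the others. Rps4l was at 14.2 TPM in replicate 1 and at 0 to 0.415 TPM in the others. Rpl39l was at 11.8 TPM in replicate 1 and listed at 0 in the others. Rpl3l was at 0.827 TPM in replicate 3 and listed at 0 in the others, which at this depth is a few read pairs.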

How the results depend on the processing

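No member was called between the groups under any alternative run, and none on the epithelial level. On the leukocyte level the number called was 0 to 1 when single libraries were left out. It was 1 without non-trogocytic replicate 2 (Rps27), where 0.796% of all tested genes were called. The cause of this effect was not tested. The difference in TPM share ran from 0.277 to 1.01 percentage points and the median fold change from -0.01 to 0.11 when single libraries were left out. Of the named members, Rps4l changed the sign of its leukocyte slope from 0.53 to -0.50 with the replicate block and to -0.50 without replicate 1 of both groups; the cause was not tested. The replicate numbers were shared by the groups. Deviations of same-numbered libraries correlated at -0.09 to 0.24, with the highest value for replicate 1. These are too few pairs to decide whether the numbers pair the libraries. A fit with the replicate block called 0 members in each of the 3 comparisons, and its smallest adjusted p among members by limma was 0.869, 0.807 and 0.814. Rescaling to the same ribosomal protein sum was chosen after seeing the data. Members at a few TPM rest on few reads, and the reads of near-identical copies cannot be parted.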
